A study of Homo sapiens with 4 samples.

Results

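The genes described here encode the mitochondrial ribosomal proteins, taken as genes whose symbol starts with MRPL or MRPS followed by a number, without pseudogenes. The rule picked genes by name alone and by no measured value, though it was chosen with earlier results of these data known. It gave 72 genes of the 18323 with a probe set of a single gene symbol, and all 72 were among the 15194 genes bright enough to be tested. By their symbols and known place in the ribosome, 50 belong to the large subunit and 22 to the small subunit. MRPS30 and MRPS18A, named for the small subunit, are counted with the large one, where their proteins are known to sit.

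RNA was measured on 4 single-colour microarrays, 1 for each of 4 groups: HK1 cells with DMSO, HK1 cells with CAPE, HK1EBV cells with DMSO and HK1EBV cells with CAPE. HK1 and HK1EBV are epithelial lines from nasopharyngeal carcinoma, and HK1EBV was read from its name as HK1 carrying Epstein-Barr virus, of which the labels say no more. CAPE is caffeic acid phenethyl ester, found in the bee product propolis and widely used to block NF-κB, given at 110 µM for 24 h, and the control was the solvent dimethyl sulfoxide (DMSO) at 0.1% for 24 h. The labels do not say whether the cultures behind the arrays were grown separately, so p-values speak for these arrays only. The spread behind them is how far the CAPE change differs between the lines, drawn towards a spread shared by all genes. In each group 1 array was read, so no group had a replicate. The lines stood in for replicates of a CAPE change, and the treatments for those of a line difference.

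Mitochondria keep a ribosome of their own, which translates the few messages of mitochondrial DNA into subunits of the respiratory chain and ATP synthase. Its RNA comes from mitochondrial DNA, while its proteins are made in the cytosol from nuclear genes and imported. Some of these proteins descend from bacterial ribosomal proteins and others have no bacterial counterpart, and both kinds are needed for oxidative phosphorylation. Of the large-subunit genes, 30 encode homologues of bacterial proteins and 20 mitochondria-specific proteins, and of the small-subunit genes 12 and 10. MRPS18A and MRPS18B, though related to bacterial S18, are counted as mitochondria-specific, and their paralog MRPS18C as the homologue. In RNA from whole cultures, fewer cells of a type and less RNA per cell cannot be told apart.

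All 8 carcinoma epithelium markers with a probe set lay above the median of all probe sets, and their summed log2 values ranged from 55.35 to 58.03 over the 4 arrays. Of the leukocyte and endothelium markers none of 5 and none of 4 lay above that median, and 5 of these were below the filter. Of 6 fibroblast markers, 2 lay above it, and the summed value ranged from 10.25 to 11.06. The part of these levels in the differences below was not tested. All values are RMA values, taken as log2 because RMA gives that scale, so a difference of 1 is read as a factor of 2, and levels are compared between arrays and not between genes. The array medians were 2.23 to 2.27.

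Promoter sequences are shown for 5 of the 6 genes that passed the CAPE test in a variant fit described below, to show which letters lie around the start of genes that were low with CAPE. They come from RefSeq on GRCh38.p14, which had an entry for 65 of the 72 genes, in 81 windows of 300 bases from 250 before to 50 after the transcription start. The search covered 6 short motifs on both strands. The letters CCGGAAG were taken for ETS factors such as GABPA, and AAGATGGCG for the factor YY1. GCGCANGCGC was taken for NRF1 and CACGTG for the E-box bound by MYC and its relatives. The other two were the CCAAT box and, as letters of the TATA box near many regulated genes, TATAAA. Matches of different motifs did not overlap in any window of these genes (0 overlaps). Each run below is on the gene's strand, 5′ to 3′, with motif matches in capitals. MRPL50 is at chr9:101398587-101398868 on the minus strand, with 32 bases after the start, so that a match running past the usual end is shown whole. MRPL1 is at chr4:77862580-77862859 on the plus strand, MRPL24 at chr1:156741059-156741338 on the minus strand, MRPS9 at chr2:105037819-105038098 on the plus strand and MRPL16 at chr11:59810749-59811028 on the minus strand, each 280 bases long with 30 after the start.
MRPL50: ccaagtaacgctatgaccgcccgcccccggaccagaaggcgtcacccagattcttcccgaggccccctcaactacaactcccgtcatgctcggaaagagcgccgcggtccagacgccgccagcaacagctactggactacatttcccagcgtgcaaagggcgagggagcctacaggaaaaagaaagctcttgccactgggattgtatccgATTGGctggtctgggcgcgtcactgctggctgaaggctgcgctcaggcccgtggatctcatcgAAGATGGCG
MRPL1: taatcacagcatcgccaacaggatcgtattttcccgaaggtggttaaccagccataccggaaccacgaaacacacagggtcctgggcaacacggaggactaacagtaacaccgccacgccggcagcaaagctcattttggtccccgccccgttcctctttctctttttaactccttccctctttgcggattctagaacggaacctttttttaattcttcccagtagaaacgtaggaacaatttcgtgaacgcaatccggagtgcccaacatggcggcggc
MRPL24: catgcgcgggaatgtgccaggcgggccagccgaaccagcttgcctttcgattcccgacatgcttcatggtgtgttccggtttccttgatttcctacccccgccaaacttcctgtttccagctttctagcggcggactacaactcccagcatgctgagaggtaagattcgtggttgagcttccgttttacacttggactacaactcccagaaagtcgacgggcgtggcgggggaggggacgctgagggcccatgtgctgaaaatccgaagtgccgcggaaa
MRPS9: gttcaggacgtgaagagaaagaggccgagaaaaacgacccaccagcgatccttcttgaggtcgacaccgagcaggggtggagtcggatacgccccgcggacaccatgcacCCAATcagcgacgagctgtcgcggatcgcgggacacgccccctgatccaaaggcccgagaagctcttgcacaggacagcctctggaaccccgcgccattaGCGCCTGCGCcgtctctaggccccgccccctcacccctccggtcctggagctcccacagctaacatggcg
MRPL16: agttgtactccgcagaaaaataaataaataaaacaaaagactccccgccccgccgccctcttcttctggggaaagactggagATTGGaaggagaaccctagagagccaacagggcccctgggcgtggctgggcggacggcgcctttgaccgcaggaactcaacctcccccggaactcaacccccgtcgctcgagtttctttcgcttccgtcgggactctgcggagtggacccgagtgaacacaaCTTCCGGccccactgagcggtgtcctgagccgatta

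The capitals in MRPL50 mark a CCAAT match read on the other strand, starting 40 bases before the start, and a YY1 match starting at base 24 of the transcript. In MRPS9 they mark CCAAT letters, and NRF1 letters on the other strand, and in MRPL16 a CCAAT match and an ETS match, both on the other strand. MRPL1 and MRPL24 hold none of the searched letters in the bases shown. A match is a description of the letters only, and a missing one says nothing of the factor.

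Over all genes, the ETS letters stood in 29 of the 65 mitochondrial ribosomal protein genes with a promoter entry (44.6%), against 18.7% of 11880 tested genes with one. Counted by window, this was 39.5% of their 81 windows against 10.3% of all 35116 windows of that length. The YY1 letters stood in 12 of 65 (18.5%) against 3.9% of tested genes, and in 14.8% of windows against 1.75%. Of the 13 YY1 matches in these windows, 9 began after the transcription start. NRF1 letters were in 9 of 65 (13.9%) against 11.3%, or 12.4% of windows against 5.78%. E-box letters were in 9 (13.9%) against 11.8%, or 11.1% of windows against 7.26%. CCAAT was in 22 (33.9%) against 41.6%, or 33.3% of windows against 34.6%, and TATAAA in 3 (4.62%) against 9.85%, or 3.7% against 11.5%. ETS or YY1 letters were found in 37 of the 65 genes, both in 4, and 14 genes held none of the 6 motifs.

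With CAPE, the mitochondrial ribosomal protein genes lay lower as a group in both lines, by little per gene. The median change, CAPE minus DMSO, was −0.19 in HK1 and −0.19 in HK1EBV, while the median of all genes tested was 0.02 and −0.003. Averaged over both lines the members' median was −0.186, a factor of 1.138, with a median of 0.0085 over all genes. The SD between the medians of the lines was 0.00337 (n = 2), which is not an error of that median. The SD of the mean change over the 72 genes was 0.224. The middle of the members' distribution ran from −0.32 to −0.04, the lower and upper quartiles. Among the 10733 genes at or above the median probe set level, a range that holds 71 of the 72, the median was 0.00908.

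In HK1, 56 of 72 were lower with CAPE, and in HK1EBV 55 of 72. Both lines had a lower value for 47 genes (65.3%), against 29.5% of all genes tested and 32.4% of the brighter ones. For 8 genes (11.1%) both lines had a higher value, against 32.1% of all genes. Opposite signs were found for 17 of 72, against 5417 of 15194 genes. Both CAPE arrays lay below both DMSO arrays for 35 genes (48.6%), against 17.7% of all genes, and above them for 5 (6.94%), against 18.4%. All of these shares are further towards lower values than the background shares. Lower by at least 0.322 log2 units in both lines were 10 of 72 (13.9%), against 5.52% of all genes, and none were as much higher in both (0 of 72), against 5.87%. The differences were small: 2 of 72, MRPL50 and MRPL24, were at least 1.5-fold lower in both lines, against 237 of 15194 genes. A 2-fold difference in either line was found for 0 members and was not counted over all genes.

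No member passed the gene-wise test. In the limma fit of line and treatment to all 4 arrays, 0 of 72 members had an adjusted p under 0.05 for CAPE, and 1 of 15194 genes did (0.00658%). The lowest adjusted p of a member was 0.083, for MRPL50, while 22 of 72 members and 2968 of 15194 genes had an unadjusted p under 0.05. The fit has 1 residual degree of freedom, so the count of 0 does not show that the genes were alike. In this design 57 genes have a residual of exactly 0, and they shape the variance estimate that all genes share. With those genes left out, limma called 6 of 72 members lower (8.33%), against 4.14% of 15137 genes, and 0 higher, against 4.07%. The 6 were MRPL50, MRPL1, MRPL24, MRPS9, MRPL16 and MRPL15.

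**Figure D1:**
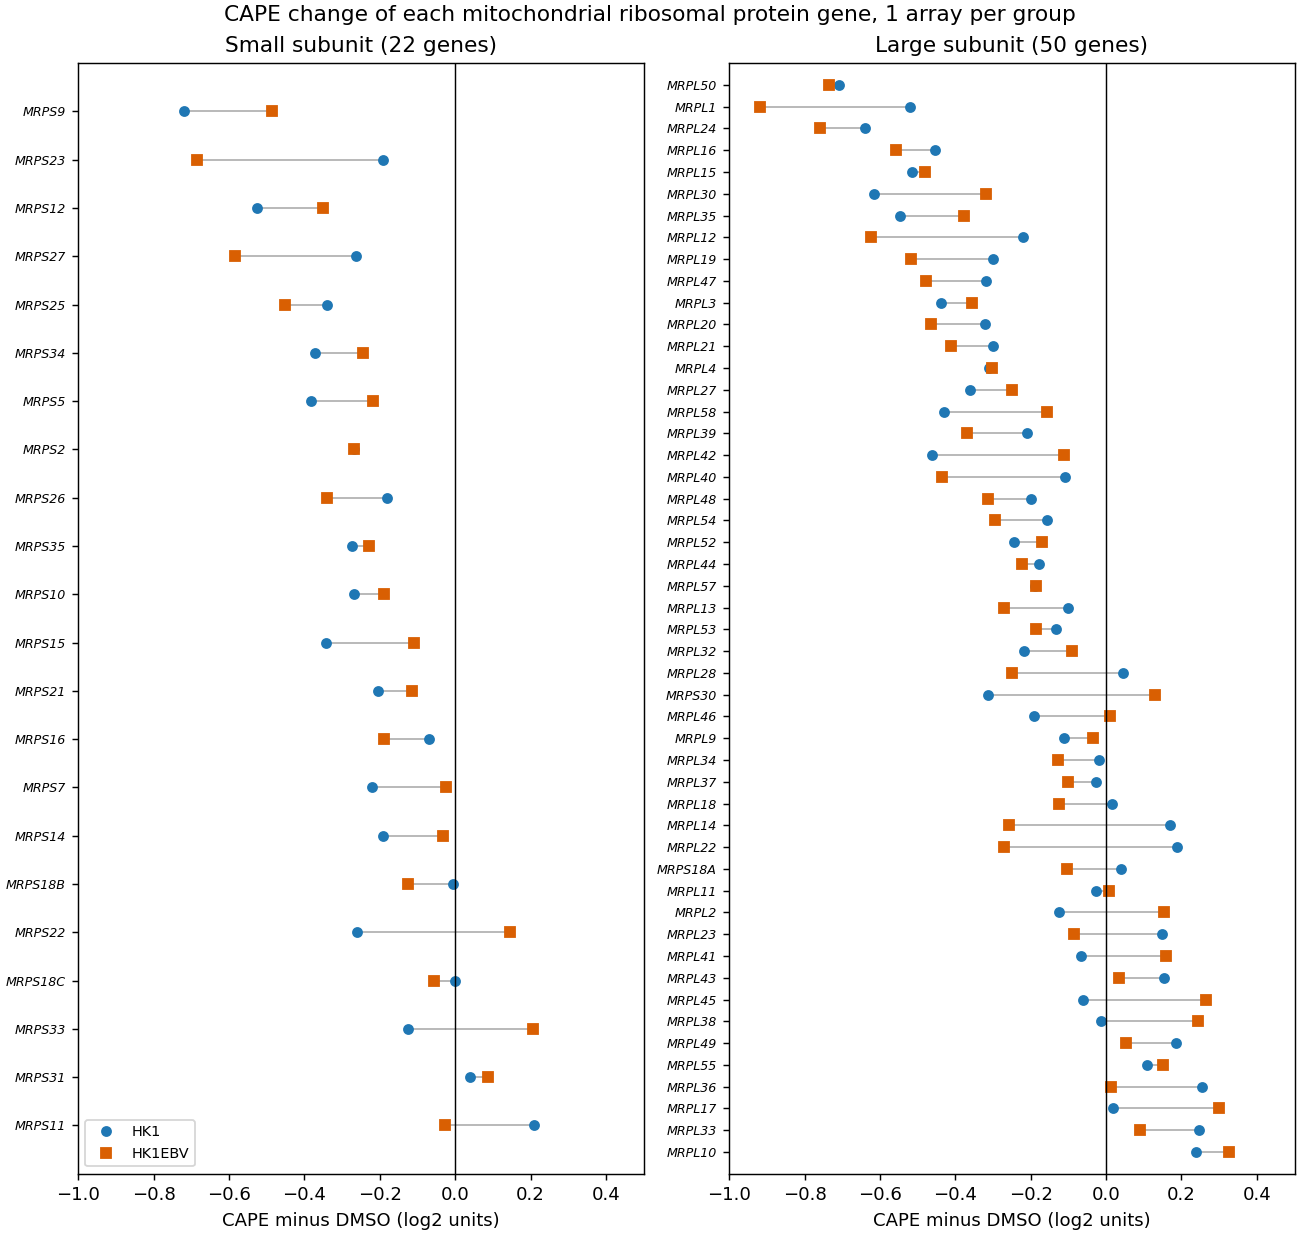
CAPE minus DMSO in log2 units on the horizontal axis for each of the 22 small-subunit and 50 large-subunit genes, with a circle for HK1 and a square for HK1EBV joined by a line, 1 array per group. Most pairs lie left of 0, from MRPL1 at −0.92 in HK1EBV to MRPL10 at 0.33 in HK1EBV.

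The lowest mean change of all 72 genes was that of MRPL50, a mitochondria-specific protein of the large subunit. Its log2 values were 5.30 in HK1 with DMSO, 4.59 in HK1 with CAPE, 5.90 in HK1EBV with DMSO and 5.17 in HK1EBV with CAPE. Both CAPE arrays lay below both DMSO arrays, and the change was nearly equal in the lines, −0.71 and −0.73. The mean change was −0.72 ± 0.11 (SE), a factor of 1.65, with an adjusted p of 0.083 in limma and 0.00829 without the genes of zero residual.

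Among homologues of bacterial proteins in the large subunit, MRPL24, whose bacterial counterpart lines the exit of the peptide tunnel, read 4.81 and 4.18 in HK1 with DMSO and CAPE, and 5.42 and 4.67 in HK1EBV. The 2 CAPE arrays were the lowest of the 4. Its mean change was −0.70 ± 0.11 (SE), with an adjusted p of 0.0849 in limma and 0.0101 without the genes of zero residual. MRPL1, of the mobile L1 stalk by which the used tRNA leaves, read 4.06 and 3.54 in HK1, and 3.83 and 2.91 in HK1EBV. HK1EBV with CAPE stood lowest, and the treatments did not overlap. The mean change was −0.72 ± 0.14 (SE), with an adjusted p of 0.103 in limma and 0.013 without those genes.

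MRPS9, of the small subunit head, read 5.08 and 4.37 in HK1 with DMSO and CAPE, and 4.94 and 4.45 in HK1EBV. Both CAPE arrays were lower than both DMSO arrays, and in HK1 this was the lowest change of all 72 genes, −0.72. The mean change was −0.60 ± 0.12 (SE), with an adjusted p of 0.105 in limma and 0.021 without the genes of zero residual. MRPL16, a core protein near the tRNA sites, read 4.98 and 4.52 in HK1 and 5.12 and 4.56 in HK1EBV. The 2 DMSO arrays and the 2 CAPE arrays formed separate pairs, a mean change of −0.51 ± 0.11 (SE). Its adjusted p was 0.116 in limma and 0.0381 without those genes. MRPL15, another core protein of bacterial descent, read 5.73 and 5.21 in HK1 and 5.94 and 5.46 in HK1EBV. These pairs did not overlap either, and the mean change of −0.50 ± 0.11 (SE) had an adjusted p of 0.115 in limma and 0.0396 without those genes.

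The other 4 genes at least 0.322 log2 units lower in both lines did not pass either fit. MRPL35, a bacterial-type protein of the large subunit, differed by −0.55 in HK1 and −0.38 in HK1EBV. MRPL3, a core protein of the large subunit with known mutations in mitochondrial disease, read 7.78 and 7.34 in HK1 with DMSO and CAPE, and 8.04 and 7.69 in HK1EBV. The CAPE pair of MRPL3 lay below the DMSO pair, with differences of −0.44 and −0.36. MRPS12, of the decoding centre of the small subunit, read 4.20 and 3.67 in HK1 and 4.77 and 4.42 in HK1EBV. For this gene HK1EBV with CAPE lay above HK1 with DMSO, so the treatments overlapped. MRPS25, a mitochondria-specific protein of the small subunit, had differences of −0.34 and −0.45. Their adjusted p-values in limma ran from 0.136 for MRPL35 to 0.164 for MRPS25.

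**Figure D2:**
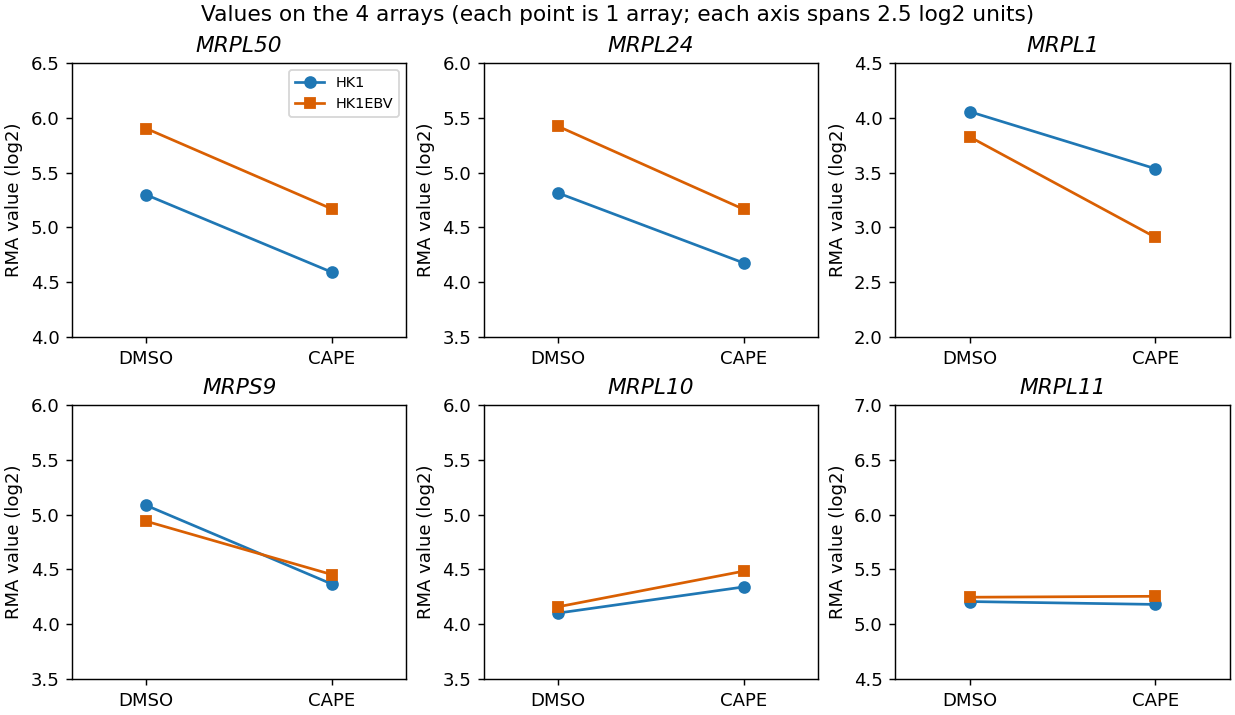
Log2 RMA value on the vertical axis for MRPL50, MRPL24, MRPL1, MRPS9, MRPL10 and MRPL11 on the 4 arrays, with DMSO and CAPE on the horizontal axis and 1 point per array joined within a line. The first 4 genes are lower with CAPE in both lines, MRPL10 is higher in both, and MRPL11 differs by −0.03 in HK1 and 0.01 in HK1EBV.

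The stalk of the large subunit, which recruits translation factors, held both higher and lower values. MRPL10, which anchors it, read 4.10 and 4.34 in HK1 with DMSO and CAPE, and 4.16 and 4.48 in HK1EBV. Both CAPE arrays were the higher ones, the highest mean change of all 72 genes at 0.28 ± 0.11 (SE), with an adjusted p of 0.262 in limma. MRPL11, at the base of the stalk, differed by −0.03 and 0.01. MRPL12, the flexible arm of the stalk, read 5.60 and 5.38 in HK1 and 5.75 and 5.12 in HK1EBV. Its CAPE arrays were the lower pair, with a change of −0.22 in HK1 and −0.62 in HK1EBV and an adjusted p of 0.208 in limma.

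Besides MRPL10, the genes with a higher value in both lines were MRPL55, MRPL33, MRPL49, MRPS31, MRPL43, MRPL17 and MRPL36. MRPL49, MRPL43 and MRPS31 are mitochondria-specific proteins, and MRPL55, MRPL33, MRPL17 and MRPL36 are of bacterial type. Their mean changes ran from 0.06 for MRPS31 to 0.17 for MRPL33, and in none were both lines past 0.322. In MRPL33, MRPL49, MRPL43 and MRPL17 both CAPE arrays lay above both DMSO arrays, as for MRPL10, and in the others the treatments overlapped. MRPL36 has a second, dimmer probe set, which differed by 0.04 in HK1 and −0.28 in HK1EBV where the brighter one gave 0.26 and 0.01. Its sign in HK1EBV thus differed between probe sets. The other 71 genes have 1 probe set each.

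Genes with a special role were spread over the range. MRPL58, a peptidyl-tRNA hydrolase that frees stalled ribosomes, read 6.19 and 5.76 in HK1 with DMSO and CAPE, and 6.32 and 6.16 in HK1EBV. Both of its CAPE arrays were below both DMSO arrays, though HK1EBV differed by −0.16 only. MRPL45, which holds the ribosome at the inner membrane, differed by −0.06 in HK1 and 0.26 in HK1EBV. The 3 paralogs of bacterial S18 had mean changes of −0.03 for MRPS18A, −0.07 for MRPS18B and −0.03 for MRPS18C, the dimmest of the 72 with a mean level of 2.15. MRPS27, an RNA-binding protein of the small subunit, differed by −0.26 and −0.58. Of the 34 genes that the rule for named genes did not take, 26 were lower in both lines, 0 higher in both and 8 of opposite sign. Their mean changes ran from −0.47 for MRPL30, a bacterial-type protein of the large subunit, to 0.12 for MRPL38. MRPL30 lay just short of the fold used, at −0.62 in HK1 and −0.32 in HK1EBV.

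By class, all 4 had medians below 0. The median mean change was −0.19 for the 12 bacterial-type genes of the small subunit and −0.26 for its 10 mitochondria-specific genes. For the large subunit it was −0.17 for the 30 bacterial-type genes and −0.17 for the 20 mitochondria-specific ones. Lower in both lines were 17 of 22 small-subunit genes and 30 of 50 large-subunit genes, both above the 29.5% of all genes. Higher in both lines were 1 of 22 and 7 of 50. Across the 72 genes the CAPE changes of the lines, which share no array, correlated with Pearson's r = 0.625, and across all 15194 genes with 0.549. Genes are not independent replicates, so this is a description.

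Genes with ETS letters in the promoter had a median CAPE change of −0.225, and matched genes without them −0.138. The order was the other way for the YY1 letters, with −0.0909 where present and −0.225 where absent. For NRF1 letters the medians were −0.0437 and −0.216, and for the E-box −0.028 and −0.225. For the CCAAT box they were −0.1558 and −0.2069, and for TATAAA −0.225 and −0.1735. These splits hold 29, 12, 9, 9, 22 and 3 genes with the motif, in the order given, and were not tested. The 72 genes lie on 21 chromosomes. The median CAPE change of the 10 nearest tested genes on the chromosome ran from −0.145 to 0.16 around the 72 genes.

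Other genes of the mitochondrial translation system were set beside these by lists of pathway membership. The limma fit of all genes called 0 genes of each of these lists for CAPE, so the calls given for them come from the fit without genes of zero residual, which called 4.14% of all genes lower. Of 4 ribosomal proteins tested under other names, 3 were lower in both lines, with medians of −0.20 in HK1 and −0.12 in HK1EBV. DAP3, a GTP-binding protein of the small subunit, differed by −0.09 in both lines, and PTCD3 by −0.27 and −0.18. Of 28 assembly factors, 14 were lower in both lines and 2 higher, with medians of −0.13 and −0.13. The fit without genes of zero residual called 2 of these lower, MTERF3 and FASTKD2. Of 14 translation factors, 7 were lower in both lines and 2 higher, with medians of −0.14 and −0.14. GFM1, the elongation factor that moves the ribosome along, differed by −0.60 in both lines, and LRPPRC, which stabilises mitochondrial messages, by −0.73 and −0.50, and limma without genes of zero residual called both. TUFM, the factor that delivers tRNA, differed by −0.20 and −0.11.

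The mitochondrial tRNA synthetases, which charge tRNAs for this ribosome, were lower in both lines for 12 of 15, with medians of −0.20 in HK1 and −0.40 in HK1EBV. The fit without genes of zero residual called 4 of the 15 lower, WARS2, CARS2, MARS2 and LARS2, and WARS2 differed by −0.67 and −1.04. Of 17 genes of mitochondrial DNA expression and upkeep, 11 were lower in both lines, with medians of −0.16 and −0.32, and the same fit called 4 lower. These were PNPT1, an RNA exonuclease, at −1.09 and −0.70, TFAM, which packages mitochondrial DNA, at −0.64 and −0.50, TFB2M and ELAC2. POLRMT, the mitochondrial RNA polymerase, differed by −0.42 and −0.22.

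Of 9 regulators of such genes, 3 were lower in both lines and 0 higher. PPRC1, a coactivator of mitochondrial genes, read 5.33 and 4.34 in HK1 with DMSO and CAPE, and 4.86 and 4.27 in HK1EBV. MYC read 7.48 and 6.95 in HK1, and 6.74 and 6.32 in HK1EBV. PPRC1 had separate treatment pairs, while for MYC the line set the order and HK1 with CAPE lay above HK1EBV with DMSO. The fit without genes of zero residual called both lower, with adjusted p-values of 0.00878 for PPRC1 and 0.0492 for MYC in limma. With those genes kept, limma gave 0.0931 for PPRC1 and 0.124 for MYC, and neither passed. NRF1 differed by −0.08 and −0.10 and GABPA by −0.10 and 0.09. Oxidative phosphorylation subunits, among them the partners of the ribosome's own products, were lower in both lines for 49 of 73, with medians of −0.13 and −0.14. Cytosolic ribosomal proteins were lower in both lines for 15 of 56 and higher for 17, with medians of −0.03 and 0.05.

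**Figure D3:**
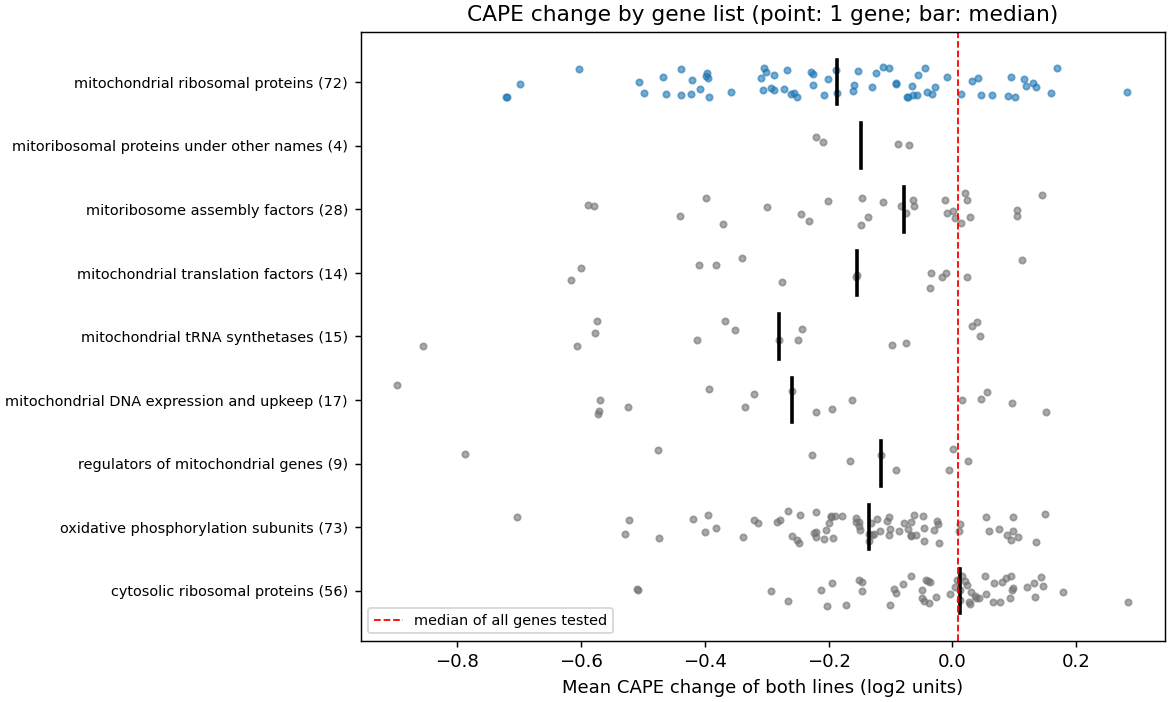
Mean CAPE change of both lines in log2 units on the horizontal axis, with 1 point per gene tested, a black bar at the median of each list and the dashed line at the median of all genes tested. The 72 mitochondrial ribosomal protein genes have their median at −0.19 and the 56 cytosolic ones at 0.01.

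Between the lines, the mitochondrial ribosomal protein genes lay slightly higher in HK1EBV. The median difference, HK1EBV minus HK1, was 0.09 with DMSO and 0.10 with CAPE, against 0.01 and −0.005 over all genes tested. The median over both treatments was 0.109. The SD between the medians of the treatments was 0.00804 (n = 2), which is not an error of that median. Higher with both treatments were 39 of 72 (54.2%), against 33.2% of all genes, and lower with both 15 (20.8%), against 31.7%. At least 0.322 log2 units higher with both were 8 of 72 (11.1%), against 7.48%, and as much lower 2 (2.78%), against 6.22%. These shares are nearer to the background than those of the CAPE change.

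In limma, 0 of 72 members were called for the line difference, against 2.9% of all genes (440 of 15194). The lowest adjusted p was 0.0605, for MRPS33, and 16 of 72 members and 3503 of 15194 genes had an unadjusted p under 0.05. Without the genes of zero residual, limma called 7 of 72 higher in HK1EBV (9.72%), against 6.26%, and 1 lower (1.39%), against 5.34%. The 7 were MRPS33, MRPL40, MRPS12, MRPL50, MRPL24, MRPL52 and MRPL22, and the lower one was MRPS31.

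MRPS33, a mitochondria-specific protein of the small subunit, read 4.43 in HK1 with DMSO, 4.30 in HK1 with CAPE, 5.02 in HK1EBV with DMSO and 5.23 in HK1EBV with CAPE. Both HK1EBV arrays were above both HK1 arrays, a mean difference of 0.76 ± 0.13 (SE). Its adjusted p was 0.0605 in limma and 0.00582 without the genes of zero residual. MRPL40, a mitochondria-specific protein of the large subunit, read 4.06 and 3.95 in HK1 and 4.92 and 4.49 in HK1EBV. The lines did not overlap, and the DMSO arrays were further apart, by 0.86 against 0.54. MRPS12 differed by 0.57 with DMSO and 0.75 with CAPE, and its lines were separate too.

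MRPL50 and MRPL24 were both higher in HK1EBV and lower with CAPE. MRPL50 differed between the lines by 0.61 with DMSO and 0.58 with CAPE, and MRPL24 by 0.61 and 0.49. For both genes HK1EBV with CAPE lay below HK1 with DMSO, so the lines overlapped. MRPL52, a mitochondria-specific protein, and the bacterial-type MRPL9 and MRPS14 completed the 8, with mean differences of 0.50, 0.39 and 0.41 and no overlap between the lines.

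MRPS31, a mitochondria-specific protein of the small subunit, was the lowest in HK1EBV. It read 5.71 and 5.75 in HK1 with DMSO and CAPE, and 5.20 and 5.28 in HK1EBV. The lines were far apart and the treatments close, with a mean difference of −0.49 ± 0.11 (SE) and an adjusted p of 0.0891 in limma and 0.0343 without the genes of zero residual. The 10 nearest tested genes on chromosome 13 had a median line difference of −0.67. MRPS33 on chromosome 7 had neighbours with a median of 0.36. These were the 2 genes of 72 with a neighbour median past 0.322 in size, and the part of the neighbourhood in their difference was not tested. MRPS5, of the small subunit core, read 7.18 and 6.80 in HK1 and 6.68 and 6.46 in HK1EBV. Both HK1EBV arrays were the lower ones, and the neighbours of MRPS5 had a median of −0.10.

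The other genes lowest in HK1EBV with both treatments were MRPL1, MRPL35, MRPS18B, MRPS16, MRPS27 and MRPL23, with mean differences from −0.43 for MRPL1 to −0.22 for MRPS16. None of these passed either fit. MRPL36 differed by −0.11 and −0.35 by its brighter probe set and by 0.54 and 0.22 by the dimmer one, so its direction between the lines turns with the probe set. Across the 72 genes the line differences with DMSO and with CAPE, which share no array, correlated with Pearson's r = 0.705, and across all genes with 0.637.

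**Figure D4:**
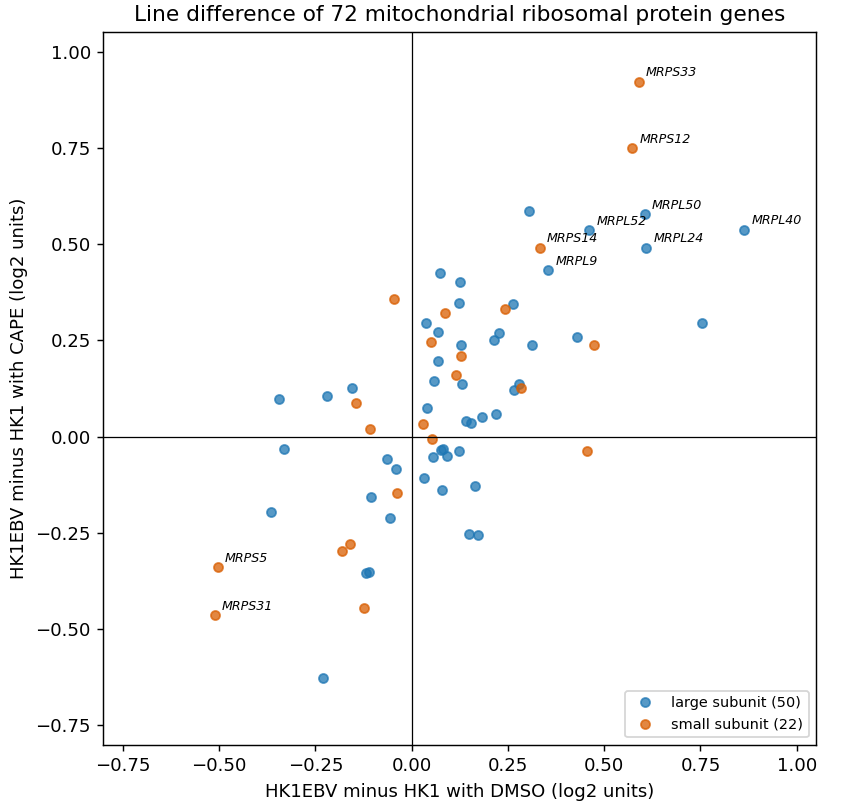
Difference HK1EBV minus HK1 in log2 units with DMSO on the horizontal axis and with CAPE on the vertical axis, 1 point per gene, coloured by subunit, with names at the genes at least 0.322 apart in the same direction with both treatments. MRPS33 stands highest with CAPE at 0.92, and MRPS31 and MRPS5 lie lowest on both axes together.

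The CAPE change itself was compared between the lines as values, since this uses up all 4 arrays and leaves no test. The change in HK1EBV was lower than in HK1 by at least 0.322 log2 units for 6 of 72 genes and higher by as much for 5, where all genes had 2223 and 1787 of 15194. The members' median of this difference was −0.01. The lowest were MRPS23, a mitochondria-specific protein of the small subunit, at −0.49, then MRPL22, MRPL14, MRPL12 and MRPL1. MRPS23 read 5.25 and 5.05 in HK1 with DMSO and CAPE and 5.70 and 5.02 in HK1EBV. HK1EBV with DMSO stood above the other 3 arrays. The highest were MRPS30 at 0.44, then MRPS22, MRPL42, MRPS33 and MRPL45. MRPS30 read 6.16 in HK1 with DMSO, 5.85 in HK1 with CAPE, 5.82 in HK1EBV with DMSO and 5.95 in HK1EBV with CAPE. HK1 with DMSO stood above the other 3 arrays for this gene.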

How the data were processed

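The deposited values were made by RMA, per the submitters' processing notes, and were read as log2, the usual output of RMA, though the base of the log is not stated. RMA corrects background, brings arrays to one distribution and summarises probes. The sources used here do not give RMA's version or any later centring. Per the labels' protocols, biotin-labelled cDNA was made from column-purified total RNA with an Affymetrix kit. Of 25800 probe sets, 18612 had a single gene symbol and were used, the brightest per gene. Genes were tested when their mean reached the 25th percentile of probe sets (0.997). Gene-wise tests were two-sided in limma 3.58.1 (lmFit, eBayes; R 4.3.3) on all 4 arrays, with line and treatment as terms, 1 residual degree of freedom, and Benjamini-Hochberg adjustment over all genes tested with a threshold of 0.05. Each SE is limma's moderated SE. On simulated data the fit recovered strongly changed genes when the spread followed limma's own prior, estimated without the genes of zero residual. Those changes were far larger than that of any member, and the simulated data held no genes of zero residual. The recovery therefore does not speak for the fit that kept such genes. None were recovered in an earlier simulation with smaller changes and a spread taken from the residuals, so a gene without a call may still differ. The number of arrays limits the precision.

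Members and lists were chosen with earlier results of these data known, so lists get counts and medians and no test. The cytosolic ribosomal protein and oxidative phosphorylation lists were trimmed of paralogs and non-subunits after their values were seen. The motif letters were written after the expression values were seen, and 1 set was tried. Named for CAPE and for the line difference were members past the threshold and the 8 highest and 8 lowest of one sign on both sides, ranked by the smaller difference, then 5 and 5 for the difference between lines in the CAPE change, up to 3 per other list, and preset genes. MRPL11, MRPS25, MRPL30 and MRPL38, outside this rule, were chosen after their values were seen. Of listed genes, AURKAIP1, GFM2 and VARS2 had no probe set of one symbol, and PPARGC1A and COX7B2 were below the filter. In 5 probe sets such a gene stood beside another symbol, and these were not used. Also 1 gene of this naming is not reported here. Alternatives were other filters, array scalings, probe set means, variance priors, no block, other thresholds, and leaving out the 57 genes of zero residual.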

Additional observations from a re-analysis of the deposited data

Results flagged for a closer look

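For 6 genes the CAPE change had one sign in HK1 and the other in HK1EBV, at least 0.322 log2 units apart. Each line has 1 array per treatment, so the difference was not tested. Opposite signs of any size were found for 17 of 72 members, against 5417 of 15194 genes. Whatever the signs, the change was lower in HK1EBV by at least 0.322 for 6 members and higher for 5. Over all 15194 genes these counts were 2223 and 1787. HK1EBV minus HK1 was −0.46 for MRPL22, −0.43 for MRPL14, 0.32 for MRPL45, 0.33 for MRPS33, 0.40 for MRPS22 and 0.44 for MRPS30. MRPL22 and MRPL14, which are core proteins of the large subunit, were higher with CAPE in HK1 (0.19 and 0.17) and lower in HK1EBV (−0.27 and −0.26). MRPL45, MRPS33, MRPS22 and MRPS30 were lower in HK1 and higher in HK1EBV.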

How the results depend on the processing

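For CAPE the count of members called, 0, became 4 with a filter at the 50th percentile, 5 with arrays shifted to one median, 4 with quantile normalization, 2 with a robust prior, 6 without genes of zero residual and 2 at a threshold of 0.10. For the line difference it went from 0 to 7, 8, 6, 4, 8 and 7 under the same settings in that order. The calls among all genes rose too. In the same order these settings called 8.33%, 6.62%, 4.97%, 2.49%, 8.21% and 3.58% of all genes for CAPE. For the line difference they called 12.1%, 10.0%, 8.71%, 6.31%, 11.6% and 9.15%. In each of these settings, all members called were among the 6 or 8 called without genes of zero residual. The filter, the robust prior and the threshold leave each member's values as they were. For those settings the overlap was thus largely fixed beforehand. The counts stayed at 0 with no filter, probe set means, a prior with a trend and no block. The median CAPE change was −0.195 with quantile normalization, and the median line difference 0.126 with arrays shifted to one median and 0.0789 with quantile normalization. With 1.5-fold in place of 0.322 log2 units, members lower with CAPE in both lines went from 10 to 2, those lower in HK1EBV from 2 to 0 and those higher from 8 to 1. Past 1.5-fold in the same ways were 237, 337 and 313 of all 15194 genes. With arrays shifted to one median, 1 member was at least 0.322 log2 units lower in HK1EBV with both treatments, against 866 of 15194 genes. Of 228 values of single members under other scalings or probe set means, 226 moved by less than the SD between lines or treatments. Much of this count was fixed beforehand. Probe set means cannot move a gene with 1 probe set, as 71 of the 72 have. The shift to one median moved every gene alike, by at most 0.0173. Quantile normalization moved a value by at most 0.0583. The mean line difference of MRPL3 was 0.246 with quantile normalization, and that of MRPL36 went from −0.23 to 0.07 with the mean of its probe sets. No paired analysis was possible because the labels give no replicate numbers, where pairing means replicates of a group, of which each has 1. The fit itself compares treatments within lines, and without the other factor as a block the lowest adjusted p of a member in limma was 0.437 for CAPE and 0.204 for the line difference. Leaving out an array was not done, as each group holds 1.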

Other observations

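The oxidative phosphorylation subunits differed more between the lines than the mitochondrial ribosomal proteins did. Of 73 subunits tested, 53 were higher in HK1EBV with both treatments and 7 lower with both, with medians of 0.25 with DMSO and 0.18 with CAPE. At least 0.322 log2 units higher with both treatments were 14 of 73, where 8 of 72 mitochondrial ribosomal protein genes were. Limma called 0 of the 73 for the line difference, and without genes of zero residual 8 higher and 1 lower, where it called 6.26% and 5.34% of all genes. The cytosolic ribosomal proteins were higher in HK1EBV with both treatments for 33 of 56, with medians of 0.08 and 0.15. MYC differed by −0.74 with DMSO and −0.63 with CAPE, HK1EBV minus HK1, with an adjusted p of 0.00697 in limma without the genes of zero residual, and was not called with them. These lists were trimmed after their values were seen, and the differences between lists were not tested.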
